A study of Homo sapiens with 6 samples.

Results

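The broad TLE3 domains of control cells were stretches of at least 2000 bp that carried TLE3 peaks in both control libraries of MDA-MB-453 cells. They were chosen by measured values. Peaks of siNS 1 and siNS 2 on chromosomes 1 to 22 and X were merged when they shared at least 1 bp, and merged regions with a peak of both libraries and a width of 2000 bp or more were taken as domains. This gave 1321 domains among 24961 regions found in both siNS libraries (consensus regions), which is 5.29% of them. The other 23640 consensus regions, all under 2000 bp, are called narrower regions. Width and presence in both siNS lists made the rule, so they describe the domains and support nothing further.

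TLE3 is a corepressor of the Groucho family. It does not recognise DNA itself, is brought to chromatin by transcription factors of the forkhead, HES, RUNX and TCF/LEF families, and works with histone deacetylases. Groucho proteins bind to one another, and an extended stretch of occupancy along chromatin has long been discussed for the family. FOXA1, a forkhead factor of luminal breast cells, can bind nucleosomal DNA and open the way for other proteins.

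MDA-MB-453 is an established human breast cancer line. TLE3 was mapped by chromatin immunoprecipitation and sequencing in cells with transient FOXA1 silencing (siFOXA1 1 and siFOXA1 2) and in controls without it (siNS 1 and siNS 2), and the study asked whether TLE3 binding requires FOXA1. All 4 libraries came from this 1 line, used the same antibody against TLE3 and had a further cross-linker added ahead of formaldehyde. The libraries of a group are labelled as biological replicates. The sources used here give neither the siRNA sequences nor the time after transfection. The 2 input libraries, labelled as MDA-MB-454, were not analysed here. The deposited lists hold positions and a score for each peak on hg38 but no reads, so depth is unknown and the level of FOXA1 was not measured by these data. The lists held 45105 (siNS 1), 46586 (siNS 2), 12249 (siFOXA1 1) and 13754 (siFOXA1 2) peaks on the chromosomes used. With shorter siFOXA1 lists, depth, immunoprecipitation yield and binding cannot be told apart. Regions of 1 cell line are not replicates of a condition, so no p-value was computed over regions, and the exact (Clopper-Pearson) 95% intervals given with shares cover counting error only.

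The 5 promoters printed here belong to genes named among the widest domains and lie wholly inside them, and they show the letters behind the base composition given for promoters inside domains. Each run is the 250 bases before a RefSeq transcription start (GRCh38.p14) in the direction of the gene, and capitals mark GGGCGG or its complement CCGCCC, the GC box read by SP and KLF factors.
GSE1, chr16:85613072-85613321, plus strand: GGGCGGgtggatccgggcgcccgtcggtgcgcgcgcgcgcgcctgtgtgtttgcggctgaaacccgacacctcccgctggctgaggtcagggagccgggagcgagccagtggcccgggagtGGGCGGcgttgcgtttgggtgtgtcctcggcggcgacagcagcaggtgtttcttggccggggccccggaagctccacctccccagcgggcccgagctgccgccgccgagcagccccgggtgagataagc
IER2, chr19:13150161-13150410, plus strand: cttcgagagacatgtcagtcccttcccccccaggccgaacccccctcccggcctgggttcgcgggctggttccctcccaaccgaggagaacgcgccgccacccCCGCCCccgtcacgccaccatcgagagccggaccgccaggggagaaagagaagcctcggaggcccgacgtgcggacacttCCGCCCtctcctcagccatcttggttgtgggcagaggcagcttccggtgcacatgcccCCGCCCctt
MIDN, chr19:1248333-1248582, plus strand: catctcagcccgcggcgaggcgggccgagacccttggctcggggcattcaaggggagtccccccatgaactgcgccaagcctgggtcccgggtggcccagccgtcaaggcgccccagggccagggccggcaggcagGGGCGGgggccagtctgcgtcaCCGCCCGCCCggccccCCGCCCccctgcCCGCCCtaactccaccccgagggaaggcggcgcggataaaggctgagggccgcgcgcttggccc
ZBTB7A, chr19:4065530-4065779, minus strand: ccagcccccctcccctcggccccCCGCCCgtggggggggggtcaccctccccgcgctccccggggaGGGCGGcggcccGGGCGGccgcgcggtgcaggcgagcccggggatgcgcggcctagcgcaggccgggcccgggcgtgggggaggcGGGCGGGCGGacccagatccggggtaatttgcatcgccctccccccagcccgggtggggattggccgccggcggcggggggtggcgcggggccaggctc
CTDSP1, chr2:218396101-218396350, plus strand: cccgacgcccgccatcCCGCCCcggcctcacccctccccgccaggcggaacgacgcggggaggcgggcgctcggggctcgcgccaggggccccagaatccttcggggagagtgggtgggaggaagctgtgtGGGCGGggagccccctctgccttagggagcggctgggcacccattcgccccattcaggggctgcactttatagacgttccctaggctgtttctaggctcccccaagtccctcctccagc
GC content was 74.0% in the GSE1 run, 69.6% in IER2, 76.8% in MIDN, 84.0% in ZBTB7A and 71.2% in CTDSP1. The GC box occurred 2 times in GSE1, 3 times in IER2, 5 times in MIDN, 5 times in ZBTB7A and 2 times in CTDSP1. The forkhead letters TGTTTAC or TGTTTGC occurred only in the GSE1 run among these 5, where TGTTTGC stands near the 5′ end.

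Promoters inside the domains were richer in G, C and CpG than promoters as a whole, as were promoters inside narrower regions of nearly the same width. Windows from 250 bases before to 50 after a start were used for 22012 distinct starts of 15712 protein-coding genes, which is not every coding gene. The 1196 windows that lay wholly inside a domain (846 genes) had a median GC content of 71.7% and a median of 33 CpG. The 7598 windows inside narrower regions had 69.0% and 30, and the 10849 windows touching no consensus region had 54.7% and 8. The 1772 windows inside narrower regions of 1500 bp or more, a set added after seeing the data, had 71.3% and 32.5, close to the domains. On both strands, the GC box GGGCGG occurred in 83.9% of windows inside domains, in 81.6% inside narrower regions and in 56.3% of all windows. The AP-2 palindrome GCCNNNGGC occurred in 43.0%, 39.8% and 27.4% of the same 3 sets. The ETS core CCGGAA went the other way within TLE3 regions, with 20.7% of windows inside domains against 31.6% inside narrower regions and 21.1% of all windows. In narrower regions of 1500 bp or more, 85.4% of windows held the GC box, 43.96% the AP-2 palindrome and 24.0% the ETS core. The GATA letters AGATAA occurred in 1.59% of windows inside domains, 2.84% inside narrower regions and 7.90% of all windows. The forkhead letters TGTTTAC occurred in 2.17%, 1.97% and 2.86%, and TGTTTGC, which cannot match the same bases, in 3.09%, 2.08% and 3.40%. GC-rich windows hold GC-rich letters more often, and the part of base composition in these shares was not tested. A match is a description of the letters, not a bound site.

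The domains covered 3.44 Mb in all. Their width had a median of 2393 bp (quartiles 2169 and 2817) and a maximum of 7406 bp, against a median of 799 bp for narrower regions. There were 245 domains of 3000 bp or more, 54 of 4000 bp or more and 19 of 5000 bp or more. Domains just inside the minimum, at exactly 2000 bp, lay at ATP6V0B, DRC8 and RAB6A, and regions 1 bp narrower, just outside it, lay at SH3RF1, RGMB and GLI4, so the minimum cuts through a continuous range of widths.

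The 2 siNS libraries did not build the domains in the same way. siNS 1 had a single peak in 78.1% of domains and covered 93.8% of domain sequence, whereas siNS 2 had a single peak in 49.1% and covered 83.2%, with up to 6 peaks in a domain. A peak of 2000 bp or more stood in both libraries in 345 domains, in siNS 1 alone in 586, in siNS 2 alone in 138 and in neither in 252. Whether width carried over can be read in the library that was not used to pick a peak. Of the 932 siNS 1 peaks of 2000 bp or more, 100% overlapped a siNS 2 peak and 37.1% overlapped one of 2000 bp or more, against 0.582% of the other siNS 1 peaks. Of the 486 such siNS 2 peaks, 99.8% overlapped a siNS 1 peak and 71.4% overlapped one of 2000 bp or more, against 2.63% of the other siNS 2 peaks. Wide peaks of either library therefore fell on wide peaks of the other far more often than other peaks did, while their exact extent differed.

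No siFOXA1 peak reached 2000 bp. The widest peak measured 1696 bp in siFOXA1 1 and 1689 bp in siFOXA1 2, against 7369 bp in siNS 1 and 6048 bp in siNS 2. Of 8218 regions with a peak of both siFOXA1 libraries, 0 were broad by the same rule. The widest was 1700 bp, the median 476 bp, and 168 were 1000 bp or wider. The 2 groups did not overlap in the number of peaks of 2000 bp or more (932 and 486 against 0 and 0). These were 2.07% of siNS 1 peaks and 1.04% of siNS 2 peaks. Nor did the groups overlap in the number of peaks of any width (45105 and 46586 against 12249 and 13754). With 2 libraries a group and a rule built on siNS widths, no test was made of these differences.

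Domains stood high in the score ranking of both siNS lists. The score is the authors' value for a peak, its definition is not stated, and it is used here only as a rank within its list, where 100 is the highest. The best peak of a domain had a median rank of 91.9 in siNS 1 and 86.5 in siNS 2, against 70.3 and 63.7 for narrower regions. By mean rank over both lists, 34.1% of domains lay in the highest-scoring decile of consensus regions, and 6.81% lay in the lower 5 deciles. Score and width come from the same peaks, so this is a description. Low-scoring domains existed as well. At MAP2K3, a kinase of the p38 pathway, a siNS 1 peak of 2377 bp with a score of 10.6 was met by a siNS 2 peak of only 244 bp with a score of 6.55.

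Domains lay mainly at the ends of protein-coding genes. Within 1 kb of a gene end lay 978 domains, 74.0% (71.6 to 76.4), against 42.7% of all consensus regions and 40.9% (40.3 to 41.6) of narrower regions. A further 241 domains (18.2%) lay inside a gene away from its ends and 102 (7.72%) between genes, against 33.1% and 26.0% of narrower regions. The share rose with width on both sides of the minimum: 57.1% of narrower regions of 1000 to 1499 bp, 70.5% of those of 1500 to 1999 bp and 71.9% of domains of 2000 to 2499 bp lay near a gene end. A wider region reaches a gene end more easily, so the distance was also taken from the midpoint, a comparison added after seeing the data. A gene end lay within 1 kb of the midpoint of 61.7% (59.0 to 64.3) of domains and 38.3% (37.6 to 38.9) of narrower regions, but of 65.8% (63.8 to 67.8) of narrower regions of 1500 bp or more. A place at gene ends was thus shared with the wider of the narrower regions. A listed coding start lay inside 791 domains (59.9%) and inside 31.2% of narrower regions. In 83 domains the starts of at least 2 genes lay together, and in 65 of them the genes ran in opposite directions. The 512 domains with a single listed start reached a median of 1016 bp upstream and 1430 bp downstream of it, and 64.5% reached further downstream.

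The broad domains were overlapped by a siFOXA1 peak slightly more often than narrower regions, but little of their sequence was covered. A siFOXA1 1 peak overlapped 260 domains (19.7%, 17.6 to 21.9) and a siFOXA1 2 peak 254 (19.2%, 17.1 to 21.5). Of narrower regions, siFOXA1 1 overlapped 13.0% (12.6 to 13.5) and siFOXA1 2 13.6% (13.2 to 14.1). Peaks of at least 1 siFOXA1 library overlapped 320 domains, 24.2% (21.9 to 26.6), against 16.9% of all consensus regions and 16.5% (16.1 to 17.0) of narrower regions. Both libraries overlapped 194 domains (14.7%), and 1001 domains (75.8%) met no siFOXA1 peak. The covered share ran the opposite way. siFOXA1 1 peaks covered 3.76% of domain sequence and siFOXA1 2 peaks 3.65%, against 5.87% and 6.17% of the sequence of narrower regions. These shares also followed width, with 3.75% and 3.83% in narrower regions of 1500 to 1999 bp, 3.57% and 3.33% in domains of 2000 to 2499 bp, and 6.40% and 5.75% in domains of 4000 bp or more. The overlap also turned when the span examined was made equal: a siFOXA1 peak touched the central 500 bp of 11.9% (10.2 to 13.8) of domains and of 15.9% (15.4 to 16.4) of narrower regions. That window is most of a narrower region (median 799 bp) but a small part of a domain (median 2393 bp). Peaks of siFOXA1 also lay more often in the middle of narrower regions, so an equal span does not make the sets alike. With every list cut to its 12249 highest-scoring peaks, the overlapped share of domains differed from that of narrower regions by -1.65 percentage points, in place of an excess of 7.69. Without siNS 1, where domains are the wide siNS 2 peaks, the excess was 18.5 points and the covered share 6.38%. All other siNS 2 peaks, shared with siNS 1 or not, then stand as narrower regions, so this excess has another base than 7.69.

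Where a siFOXA1 peak met a domain, it was 1 short peak in most cases. Overlapped domains held a single siFOXA1 1 peak in 85.8% and a single siFOXA1 2 peak in 87.4%, and these peaks had median widths of 366.5 bp and 383 bp. Peaks met by narrower regions were as short, 369 bp and 376 bp, and single in 98.4% and 98.5%. The median share of an overlapped domain that was covered was 15.3% in siFOXA1 1 and 15.1% in siFOXA1 2, and in overlapped narrower regions, with peaks of like width in less sequence, it was 44.9% and 45.2%. At least 50% was covered in 4 domains in siFOXA1 1 and in 1 in siFOXA1 2. The midpoints were spread along the domain: with each region cut into 3 equal parts, the middle part held 39.5% of siFOXA1 1 peaks in domains and 39.5% of siFOXA1 2 peaks, against 66.0% and 64.6% in narrower regions. In the 194 domains met by both libraries the peaks shared bases in 187, and 64.3% of the sequence covered by either was covered by both, against 74.6% in narrower regions met by both. The other 126 overlapped domains were met by 1 siFOXA1 library only.

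**Figure D1:**
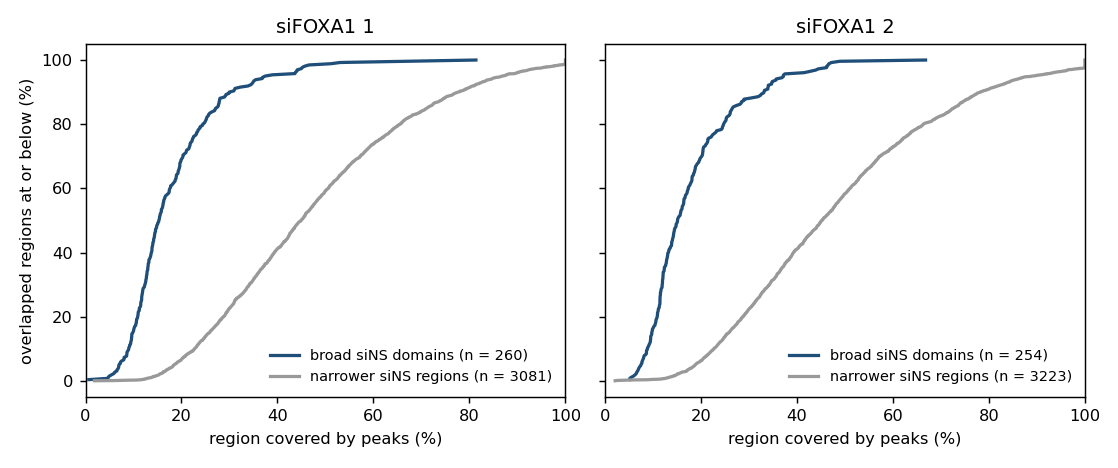
Cumulative share (%) of overlapped siNS regions against the share (%) of the region covered by siFOXA1 peaks, for siFOXA1 1 (left) and siFOXA1 2 (right), with broad domains in blue and narrower regions in grey. The curves of the domains lie to the left, with medians of 15.3% and 15.1% against 44.9% and 45.2%.

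Domains held a small part of the siFOXA1 lists, 304 of the siFOXA1 1 peaks (2.48%) and 291 of the siFOXA1 2 peaks (2.12%). Among the 1000 highest-scoring peaks of each list, 21 and 15 lay in a domain, near those shares. The best score rank of a siFOXA1 peak within an overlapped domain had a median of 60.05 in siFOXA1 1 and 55.6 in siFOXA1 2, against 61.5 and 60.9 in overlapped narrower regions.

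Overlap with siFOXA1 peaks followed the siNS score and the place of the domain. In the highest-scoring decile 56.0% of 450 domains were overlapped (51.3 to 60.6), in the next 13.8% of 349, and in the one after it 6.57% of 198. Narrower regions of the same deciles gave 58.7%, 29.1% and 20.4%, so at a given score rank domains were overlapped as often or less often. By place, 18.4% (16.0 to 21.0) of domains at gene ends, 36.5% (30.4 to 42.9) inside genes and 51.0% (40.9 to 61.0) between genes were overlapped, against 5.02%, 22.99% and 26.4% of narrower regions. With both held, domains at gene ends in the highest-scoring decile were overlapped in 49.0% (43.0 to 54.9) and narrower regions there in 37.1% (33.3 to 41.0). For the central 500 bp the same 2 sets gave 21.9% and 32.5%, so that excess too was turned at equal span. In the next decile at gene ends the shares were 9.47% and 11.3%. Away from gene ends they were 68.5% and 68.5% in the highest-scoring decile and 27.1% (18.0 to 37.8) and 42.6% (39.8 to 45.5) in the next. For overlap anywhere in a region, a difference between domains and narrower regions in 1 direction at every score and place was therefore not found. In the central 500 bp, domains stood below narrower regions in every decile that held domains, at gene ends and elsewhere. Away from gene ends in the highest-scoring decile, that window, a larger part of a narrower region than of a domain, gave 43.8% and 66.9%. Overlap rose with width, from 17.7% of narrower regions of 1500 to 1999 bp and 20.7% of domains of 2000 to 2499 bp to 50% of the 54 domains of 4000 bp or more.

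**Figure D2:**
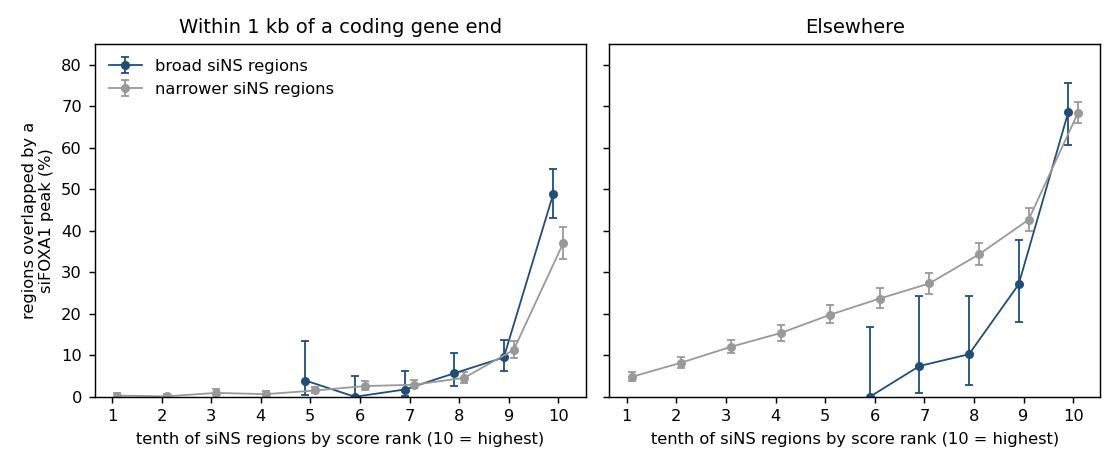
Share (%) of siNS regions overlapped by a peak of at least 1 siFOXA1 library, by decile of siNS score rank (10 is the highest), for regions within 1 kb of a coding gene end (left) and elsewhere (right). Points are shares with exact 95% intervals for sets of at least 20 regions. In decile 10 broad domains stand at 49.0% near gene ends and 68.5% elsewhere.

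The widest domain, 7406 bp at chr20:63536305-63543710, lay at PTK6, a non-receptor tyrosine kinase of epithelia, and SRMS, its neighbour of the same kinase family. Its best score was 294 in siNS 1 and 251 in siNS 2, and siFOXA1 1 and siFOXA1 2 covered 6.58% and 6.95% of it. The next, 6729 bp inside GSE1 at chr16:85609687-85616415, was covered for 21.1% and 28.5%. GSE1 encodes a partner of the CoREST demethylase complex. The IER2 domain, at an immediate early gene (chr19:13149595-13156219, 6625 bp), was met by siFOXA1 1 alone, which covered 7.25%. MIDN, which encodes a protein that escorts nuclear proteins to the proteasome, had a domain of 6251 bp at chr19:1247864-1254114, covered for 12.3% and 16.1%. TNK2, another non-receptor tyrosine kinase, had 5934 bp at chr3:195906450-195912383 with scores of 300 and 342, covered for 27.5% and 19.8%. These domains had peaks of both siNS libraries across most of their length and short siFOXA1 peaks inside.

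Other domains of the same width met no siFOXA1 peak at all. At CCND1, which encodes cyclin D1, a domain of 5629 bp (chr11:69640099-69645727) scored 113 in siNS 1 and 104 in siNS 2, was covered for 95.0% and 85.2% by siNS peaks and had 0 siFOXA1 peaks. The same held for the domain of 6238 bp shared by the ends of FASN, the fatty acid synthase gene, and CCDC57 (chr17:82096178-82102415). It held too for the domains at CTDSP1, a phosphatase of RNA polymerase II (6048 bp), SPHK1, the sphingosine kinase gene (5405 bp), MMP17, a membrane-bound metalloprotease gene (5254 bp), FLNA, the filamin A gene (5223 bp), and BMP4, a BMP ligand gene (5069 bp). Of the 15 widest domains, those at KIF22 and MAZ, at IER2 and at ZBTB7A were met by 1 siFOXA1 library only.

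**Figure D3:**
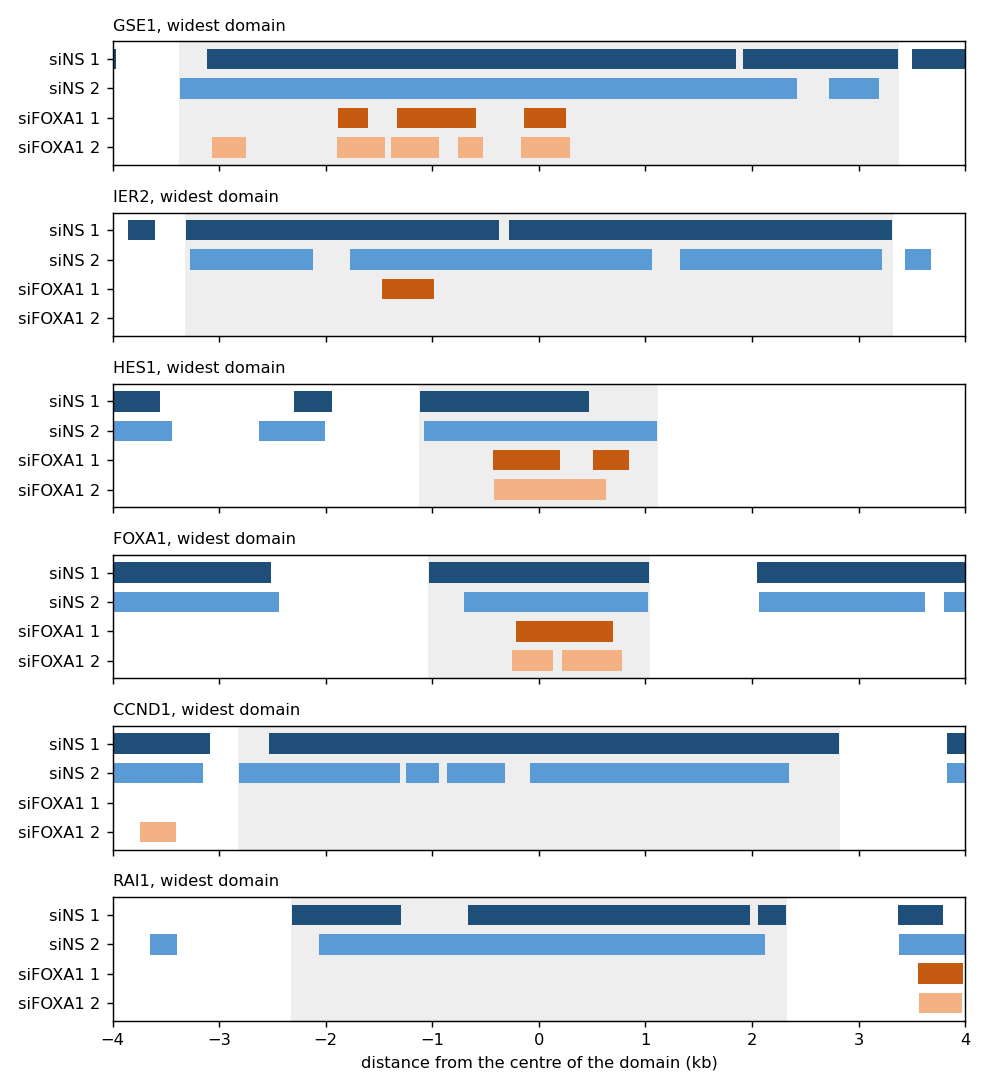
Peaks of the 4 lists in and around the widest domain of 6 genes, as bars by distance in kb from the centre of the domain; the grey area is the domain. siNS peaks fill the domains, siFOXA1 peaks are short inside GSE1, IER2, HES1 and FOXA1, and 0 lie inside the domains at CCND1 and RAI1.

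The highest-scoring domains were narrower than these and 9 of the first 10 met a siFOXA1 peak, beside 56.0% of the 450 domains in the highest-scoring decile. The first lay over the long noncoding RNA gene PCAT29 at chr15:69593685-69596131, 2447 bp wide and with no coding gene within 100 kb. It scored 790 in siNS 1 and 650 in siNS 2. Its siFOXA1 peaks had score ranks of 49.2 in the siFOXA1 1 list and 70.4 in the siFOXA1 2 list, and covered 16.1% and 14.998% of it. HID1 (2618 bp, scores 664 and 539), PRRT1B (2078 bp, 627 and 518) and PAX9, a developmental transcription factor gene (2295 bp, 558 and 546), followed. TRIB1, a pseudokinase gene, had a domain of 3250 bp with scores of 641 and 461. Of the 10 domains with the highest mean rank, 7 met peaks of both siFOXA1 libraries, those at PGAP3 and CFAP65 met siFOXA1 2 alone, and that near LOC124905027 met neither.

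The largest covered shares were found mostly away from gene ends. The domain near SRP14 (2085 bp, chr15:40054435-40056519) was covered for 81.3% in siFOXA1 1 and 66.8% in siFOXA1 2. Its siFOXA1 1 peak of 1696 bp was the widest of that list. At FOXA1, the silenced gene itself, a domain of 2067 bp over the starts of FOXA1 and TTC6 (chr14:37594517-37596583) scored 398 in siNS 1 and 296 in siNS 2 and was covered for 43.7% and 46.2%. At HES1, the Notch target gene whose product recruits Groucho proteins, the domain of 2223 bp lay 1948 bp from the gene (chr3:194140680-194142902), scored 341 and 216, and was covered for 43.6% and 47.2%. SP6, an SP-family factor gene, had 45.2% and 46.5% of a domain 6993 bp away covered, and LLGL2, a polarity gene, 45.7% and 48.9% of one inside it. At FOXA1, HES1, SP6 and LLGL2 the siFOXA1 libraries covered similar shares, whereas the P2RY2 domain was covered for 67.0% in siFOXA1 1 and 37.5% in siFOXA1 2.

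By assignment to the gene that spans or lies nearest to them within 100 kb, the domains belonged to 1186 of 19974 protein-coding genes, 5.94%. Of these, 1080 had 1 domain, 95 had 2 and 11 had more. GSE1 had 6 domains, 19091 bp in all, and 4 of them met peaks of both siFOXA1 libraries. RAI1, a chromatin regulator gene of the retinoic acid response, had 5 domains (14895 bp) and BCOR, which encodes a BCL6 corepressor, had 4 (10761 bp), and 0 of these 9 met a siFOXA1 peak. RXRA, the retinoid X receptor gene, had 3 domains (9488 bp), which all met peaks of both siFOXA1 libraries and were covered for 16.3% and 13.2%. BCL9L, a Wnt coactivator gene, had 3, of which 2 met siFOXA1 peaks. Genes with several domains thus ranged from all to none in their overlap with siFOXA1 peaks. Their siNS scores differed too: the best BCOR scores were 58.0 and 27.1, the best GSE1 scores 242 and 180.

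Among 15 gene lists, the largest shares of genes with a domain were 50% of immediate early genes and 45.5% of receptor kinases and ERK feedback genes. The TLE family and corepressors followed with 41.9%. The lists were drawn up with earlier results of these data known, so the shares are descriptions beside the 5.94% of all coding genes. The list of immediate early genes, which respond to stimuli within minutes to hours, was written by hand and had a domain in 16 of 32. Some consensus region was found at 31 of 32. The 5.94% also counts genes without any consensus region, and the share of all coding genes that had one is not given here. In this list the largest summed widths were those of CCND1 (9124 bp), IER2 (6625 bp) and ZFP36L1, an mRNA decay factor gene (6196 bp). CCND1 was placed by hand in this list and in that of cell cycle genes, so its 2 domains count in both, and the placing says nothing of how fast it responds. JUN and EGR1, also of the list, had 4740 bp and 2676 bp. Receptor kinases and feedback inhibitors of ERK signalling had one in 15 of 33, among them ERBB3 (3300 bp), SPRED2 (3130 bp), SPRY4 (2985 bp) and DUSP1 (2686 bp). Of the 17 domains of that list, 3 met a siFOXA1 peak, beside 24.2% of all domains. Without siNS 1, when 450 coding genes in place of 1186 had a domain, these counts were 9 of 32 immediate early genes and 8 of 33 receptor kinase and feedback genes.

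**Figure D4:**
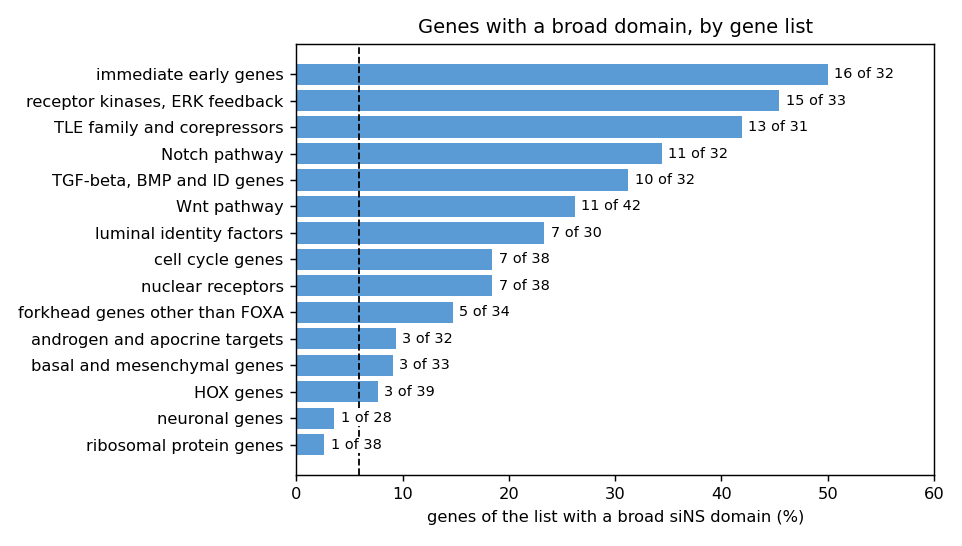
Share (%) of the genes of each list with a broad siNS domain, with the number of genes beside each bar; the dashed line is the 5.94% of all protein-coding genes. Immediate early genes stand at 50% and ribosomal protein genes at 2.63%.

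The TLE family and corepressor list had a domain in 13 of 31 genes (6 without siNS 1). Of its 24 domains 8 met a siFOXA1 peak, 4 of them at GSE1, beside 24.2% of all domains. TLE3 itself had a domain of 2464 bp over its start (chr15:70095627-70098090), which scored low, 20.3 in siNS 1 and 14.1 in siNS 2, and met 0 siFOXA1 peaks. TLE5, the short family member without the C-terminal repeats, had 2 domains (4718 bp), of which 1 met a siFOXA1 peak. CTBP2 (4361 bp), SIN3A (2056 bp), RCOR1 (2546 bp) and HDAC7 (2655 bp), all of corepressor complexes, had 1 each, and of these 4 the HDAC7 domain met one.

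Notch genes had a domain in 11 of 32 and Wnt genes in 11 of 42, and the domains differed in overlap with siFOXA1 peaks. Without siNS 1 these counts were 8 and 3. Of the 11 Notch domains 8 met a siFOXA1 peak, and of the 13 Wnt domains 0 did, beside 24.2% of all domains. This difference was chosen after the values were seen, depends on which genes were listed and was not tested. The Wnt list left out the Wnt coactivator gene BCL9L, of whose 3 domains 2 met peaks of both siFOXA1 libraries. On the Notch side the overlapped domains lay at the receptor NOTCH1 (3954 bp), the ligands JAG1 (3821 bp) and DLL4 (3177 bp), the modifier LFNG (2866 bp), the transcription factor RBPJ (2430 bp), its coactivator MAML3 (2284 bp) and the effectors HES1 and HES4 (4102 bp). Those at DLL1, HES6 and SPEN met none. The overlapped share of a domain was small at JAG1, 6.07% and 6.57%, and at NOTCH1, 10.8% in siFOXA1 1 and none in siFOXA1 2. On the Wnt side domains lay at the ligands WNT7B, WNT5A and WNT9A, the receptors FZD4, FZD5 and FZD7, the inhibitors AXIN2, ZNRF3 and APC2, the kinase GSK3B and the nuclear factor TCF7L2. The widest of them measured 4419 bp, at APC2. The siNS score ranks of the 2 lists differed as well: the mean rank had a median of 94.9 for Notch domains, with 8 of 11 in the highest-scoring decile, and of 86.2 for Wnt domains, with 3 of 13 in it. Within 1 kb of a gene end lay 7 of the 11 Notch domains and 11 of the 13 Wnt domains. The part of score and place in the difference was not tested.

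In the TGF-beta, BMP and ID list 10 of 32 genes had a domain, and 2 of the 10 domains met a siFOXA1 peak, near the share of all domains. Without siNS 1 the list had 5 genes with a domain. The SMAD6 domain, at an inhibitor of BMP signalling, spanned 3666 bp and was covered for 24.4% and 22.1%, and that at TGFB3, a ligand gene, spanned 2967 bp with 0 siFOXA1 peaks. Nuclear receptors had one in 7 of 38 and cell cycle genes in 7 of 38, and without siNS 1 in 4 and 1. Forkhead genes other than FOXA had one in 5 of 34 (2 without siNS 1), with FOXP1 (3742 bp), FOXO1 (3039 bp) and FOXO3 (2 domains, 4906 bp) leading. Lists near the share of all coding genes were androgen and apocrine targets (3 of 32, FKBP5 the widest at 3517 bp), basal and mesenchymal genes (3 of 33), HOX genes (3 of 39, all in the HOXC cluster), neuronal genes (1 of 28) and ribosomal protein genes (1 of 38). Some consensus region was found at 30 of 38 ribosomal protein genes and at 31 of 32 immediate early genes, without a share of all coding genes beside them. Without siNS 1, basal and mesenchymal genes had 0 with a domain and HOX genes 1, and without siNS 2 ribosomal protein genes had 0.

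Luminal identity factors had a domain in 7 of 30 genes. ELF3, an epithelial ETS factor gene, had 2, at each end of the gene, of 2335 bp and 2021 bp. The latter, at chr1:202017582-202019602, scored 579 in siNS 1 and 522 in siNS 2, and was covered for 23.9% and 24.6%. GATA3 and GATA2, zinc finger factor genes, each had a domain over a start, 3094 bp and 4092 bp wide, with 0 siFOXA1 peaks. The GATA3 domain (chr10:8049283-8052376) scored 159 and 77.1. TFAP2C, an AP-2 gene, had 3006 bp. No domain was assigned to ESR1, XBP1, SPDEF, TFAP2A or TFAP2B, although each had from 3 to 10 consensus regions, and KRT5, a basal keratin gene, had 0 consensus regions.

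Around the growth factor receptor gene ERBB2 on chromosome 17, domains lay at PGAP3 (2425 bp), inside ERBB2 (2410 bp and 2326 bp) and at GRB7, an adaptor gene (4032 bp). The PGAP3 domain scored 569 and 376, and its 1 siFOXA1 2 peak covered 9.90%. In ERBB2 the first domain met 0 siFOXA1 peaks and the second was covered for 19.0% and 18.1%. The GRB7 domain was covered for 15.3% and 16.5%. Copy number was not examined and the inputs were not analysed, so the part of copy number in the scores and widths here was not tested. The MYC domain, inside the gene, measured 2451 bp, scored 35.3 and 23.1, and met 0.

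Some domains lay close to one another along chromosomes. Another domain lay within 50 kb of 404 domains (30.6%), and this was not compared with the spacing of genes or of narrower regions. The longest row of such neighbours, on chromosome 16 from 588076 to 730766, held 11 domains from RAB40C to CCDC78, and 2 of them met a siFOXA1 peak. Chromosome 22 held a row of 8 at WNT7B and LOC124905135, and chromosome 1 a row of 7 from ZBTB7B to MUC1. A row of 7 on chromosome 11 at FKBP2, PLCB3 and BAD met 0 siFOXA1 peaks, and of all domains 24.2% met one. Per 100 coding genes, chromosome 22 held 12.0 domains, chromosomes 14 and 16 each 10.9, and chromosome X 2.36. Only 8 domains had no coding gene within 100 kb, and 7 of these met a siFOXA1 peak, beside 51.0% of the 102 domains between genes. Apart from PCAT29 the 8 included domains over LINC01132 and over DLEU1 and DLEU2 (scores 332 and 255). A long noncoding RNA gene overlapped 385 domains.

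Hairpins of 32 of 1558 listed miRNAs, 2.05%, lay in or across 28 domains, of which 8 met a siFOXA1 peak, near the 24.2% of all domains. The mature forms of 6 of them are printed because they include epithelial miRNAs and a pair that shares a seed; capitals mark the seed, bases 2 to 8, and the sequences are from RefSeq (GRCh38.p14).
hsa-let-7a-5p, chr22:46112752-46112773, plus strand: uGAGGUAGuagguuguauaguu
hsa-let-7b-5p, chr22:46113691-46113712, plus strand: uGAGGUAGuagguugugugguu
hsa-miR-200c-3p, chr12:6963742-6963764, plus strand: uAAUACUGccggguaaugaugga
hsa-miR-203a-3p, chr14:104117469-104117490, plus strand: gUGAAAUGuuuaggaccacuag
hsa-miR-375-3p, chr2:219001648-219001669, minus strand: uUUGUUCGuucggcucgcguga
hsa-miR-92b-3p, chr1:155195237-155195258, plus strand: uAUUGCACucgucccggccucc
The let-7a and let-7b forms share the seed GAGGUAG, and let-7 miRNAs are known as repressors of growth genes. Their hairpins met a domain of 2112 bp in LOC124905135 (chr22:46112787-46114898), which held that of let-7b whole and, at its edge, only the last part of that of let-7a. The printed let-7a form, with its seed, ends before the domain starts and so lies outside it. This domain had the low scores of 14.2 and 5.98 and 0 siFOXA1 peaks. The miR-200c gene, of the family that guards the epithelial state, lay in a domain of 3154 bp assigned to PTPN6 with 0 siFOXA1 peaks. The miR-203a gene, of stratified epithelia, lay in a domain of 3592 bp assigned to ASPG that met peaks of both siFOXA1 libraries. The miR-375 gene lay in the CFAP65 domain of 3628 bp (scores 534 and 365), where siFOXA1 2 alone had a peak, covering 9.48%. The miR-92b gene lay in a domain of 2443 bp assigned to MUC1, with 0 siFOXA1 peaks. These seeds differ from one another except for the let-7 pair.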

How the data were processed

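For each ChIP library the authors deposited a headerless list of peaks with chromosome, start, end, name and score. The score is the authors' deposited value, its definition is not stated, and it served here only for ranks inside a list. Scores printed for single domains are not comparable between lists. Reads were handled with Trim Galore, BWA 0.7.5a, SAMtools and MACS2 on hg38, per the submitters' processing notes. How peaks were thresholded and how the inputs entered is not stated in the sources at hand. Groups follow the sample titles, and the siFOXA1 2 list, whose name carries another number, was matched by its sample record. Mitochondrial peaks (3 to 9 per list) were left out. Positions are 1-based.

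Peaks were merged at 1 bp of overlap. Covered share is the sequence of a region under a library's peaks. Genes, starts and miRNAs come from RefSeq tables (GRCh38.p14), with 19974 protein-coding genes on the chromosomes used; a gene end is either end of its span. Domains were assigned to the gene that spans them, the one with the nearer end where several do, or else the nearest within 100 kb, which says nothing of regulation. Sequence was read only in promoter windows and miRNAs.

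The domains, gene lists (512 entries, all matched) and tests were chosen with earlier results of these data known. Named items follow a rule: the 15 widest domains, the 10 with the highest mean siNS score rank, the 10 with the largest covered share, the 10 widest without a siFOXA1 peak, the 10 genes with most domains, the 3 genes of each list with the largest summed width, domains next to the width minimum, 16 fixed genes and up to 5 promoters. Some genes under this rule are not reported here. Further list members, the lowest-scoring domains, rows of neighbours and miRNAs were named after their values were seen. The code was tested on simulated data (all 764 simulated domains were recovered), and 5 of 5 counts equalled those of bedtools 2.31.1. Python 3.11.15, numpy 2.4.6, scipy 1.17.1 and matplotlib 3.10.9 were used.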

Additional observations from a re-analysis of the deposited data

How the results depend on the processing

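No read counts or depths stand behind the lists, and width, score and overlap all depend on how deeply each library was read, which cannot be told apart from binding. No paired analysis was possible because the results recomputed below rest on regions merged from both siNS lists and come from no test. No replicate of its own therefore stands behind a region. Numbers and widths of peaks in single libraries are not of this kind. The groups carry the same replicate numbers, but these library values were not compared in pairs by that number. Differences between domains and narrower regions, and the list counts, were recomputed under alternatives added after seeing the data.

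The number of domains was 3519 at a width minimum of 1500 bp, 245 at 3000 bp and 554 when width was the sequence covered by both siNS libraries, and genes with a domain numbered 3040, 234 and 519. From 1 siNS library alone the numbers ran from 486 to 932 domains and from 450 to 853 genes. In that setting all other peaks of the library stand as narrower regions, whether or not the other siNS library shared them. The overlapped share was 20.2% at 1500 bp, 37.1% at 3000 bp, 31.0% with the width covered by both, 14.6% for peaks no lower than the median score of their list, 30.8% with lists of equal length and 11.9% in the central 500 bp. It ran from 24.4% to 35.8% without 1 siNS library and from 19.2% to 19.7% without 1 siFOXA1 library. The excess over narrower regions, 7.69 percentage points, reversed to -1.65 with lists of equal length (12249 peaks each) and to -4.02 in the central 500 bp. It was 3.76 at 1500 bp, 20.4 at 3000 bp, 14.4 with the width covered by both, 0.528 for peaks no lower than the median score of their list, 15.01 to 18.5 without 1 siNS library and 5.59 to 6.65 without 1 siFOXA1 library. The covered share, 3.70% on average, was 4.73% at 3000 bp, 4.54% with the width covered by both, 2.54% for peaks no lower than the median score of their list, 4.80% with lists of equal length, 3.80% to 6.38% without 1 siNS library and 3.65% to 3.76% without 1 siFOXA1 library. It stayed below that of narrower regions in each of the 10 alternatives run on it. The share near gene ends was 80.4% at 3000 bp, 77.1% with the width covered by both, 71.3% with lists of equal length, 70.0% to 75.5% without 1 siNS library, 68.0% with a gene end inside the domain and 82.4% within 5 kb, and stayed above that of narrower regions in each alternative run on it. The cause of these shifts was not tested. Merging peaks up to 200 bp apart moved the number of domains to 1745, within 1.5 times, and left the shares within their 95% intervals. Without siNS 1, 10 of the 15 lists had over 1.5 times fewer genes with a domain. Of the 15 lists, 11 stayed above the share of all genes in 8 of 8 alternatives; HOX genes did in 7 and basal and mesenchymal genes in 3.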
